A study of Mus musculus with 8 samples.

Results

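Mitochondrial fatty acid oxidation and the citrate cycle, with the pyruvate enzymes that feed it, were followed through 36 transcripts in epididymal fat of mice with and without Atg3 in their adipocytes. The members were taken by gene name: 20 genes of beta-oxidation and 16 of the citrate cycle and pyruvate entry, all found, among 37417 genes in the deposited table. The wild-type group (WT) holds 4 male C57Bl/6 mice, and the knockout group (KO) holds 4 male mice with the genotype label Adiponectin-Cre ERT2-Atg3 flox/flox. CreERT2 is a Cre recombinase that works after tamoxifen, and adiponectin is made by adipocytes, so the other cells of the tissue keep the gene. Mice of both groups received tamoxifen and ate chow. The labels used here state neither the age of the mice nor whether the wild-type mice carried Cre or floxed alleles. Whole tissue was sequenced, so fewer adipocytes and less RNA per adipocyte cannot be told apart.

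Beta-oxidation cuts long fatty acids into acetyl-CoA inside mitochondria. Carnitine carries the acyl chain across the inner membrane, a set of dehydrogenases and hydratases shortens it step by step, and electron-transferring flavoprotein passes the electrons to the respiratory chain. The citrate cycle burns the acetyl-CoA, and in white fat citrate and oxaloacetate also leave the mitochondrion to serve fatty acid and glycerol synthesis. Atg3 encodes the enzyme that couples LC3-family proteins to membrane lipid during autophagy, the route by which cells also degrade mitochondria.

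No member passed the test between genotypes. Of 36 members, all of which passed the filter on low counts, 0 reached an adjusted p of 0.05 with edgeR's quasi-likelihood test, where 0.405% of all 14800 tested genes did. DESeq2 and limma-voom also called 0. An unadjusted p under 0.05 was reached by 5 members (13.9%), near the 16.2% of all tested genes, and by 3 of 20 beta-oxidation and 2 of 16 citrate cycle genes. The genotypes' libraries did not overlap for 2 members, Cpt1a and Pdhb, both lower in the knockout, against 8.86% of all tested genes. Precision was enough to bound most differences: the 95% interval of the fold change lay within 1.5-fold either way for 34 members and within 2-fold for 35. The member outside both bounds was Cpt1b.

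A log2 fold change below 0 (lower in KO) was found for 15 of 20 beta-oxidation and 12 of 16 citrate cycle genes, and for 52.4% of all tested genes. The median log2 fold change was -0.10 over the beta-oxidation genes and -0.06 over the citrate cycle genes, beside -0.01 over all tested genes. The size of these small shifts changed with the libraries kept, in both directions. Without WT library 3 the medians were -0.01 and 0.00 and 12 of 20 and 8 of 16 genes were below 0, and without KO library 3 they were -0.05 and -0.01. Without KO libraries 2 and 3 together they were -0.02 and -0.03. Other removals made the shifts larger: the medians were -0.17 and -0.12 without WT library 1, and -0.15 and -0.09 without KO library 1. Without KO libraries 1 and 4 together they were -0.19 and -0.09.

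**Figure D1:**
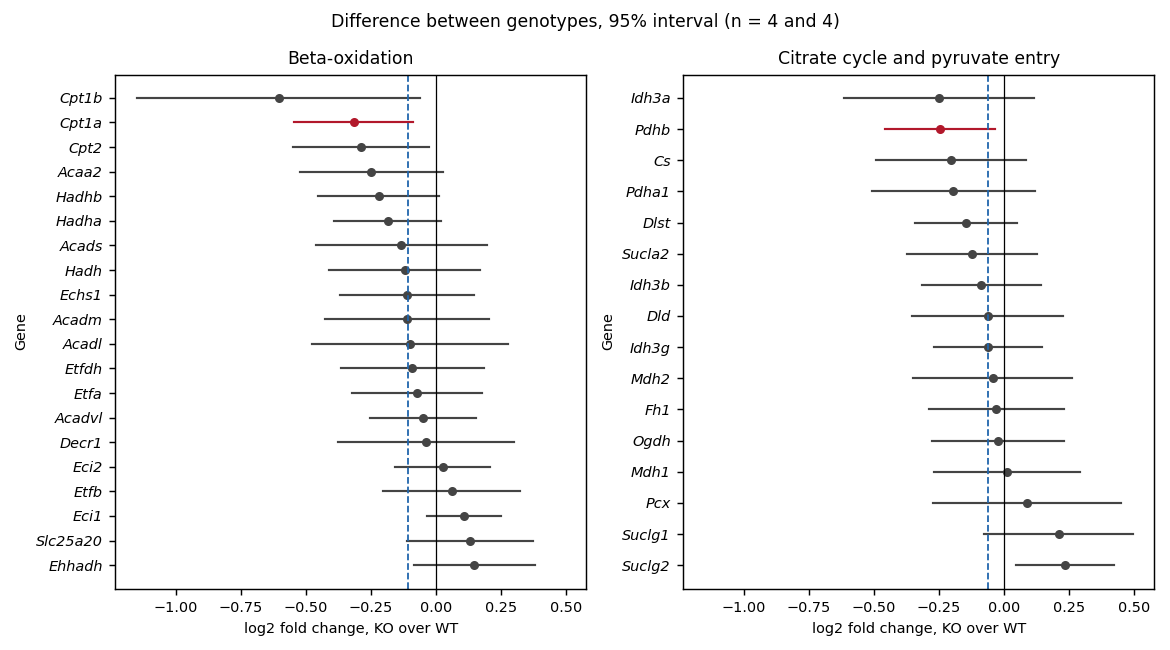
Log2 fold change of each gene, KO over WT, with its 95% interval (horizontal lines, n = 4 libraries per genotype). Red marks Cpt1a and Pdhb, whose libraries did not overlap between genotypes, and the dashed line is the list's median (-0.10 and -0.06).

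The libraries differed in ways the genotype does not name. Total counts ran from 10986375 to 21688464. Atg3 itself fell from 50.2 ± 4.34 to 30.3 ± 1.84 CPM (the count scaled to a common library size; SD, n = 4), with no overlap (log2 fold change -0.73, SE 0.086, edgeR adjusted p = 0.0168), so each library matched its label. Its adjusted p was 0.0543, 0.0705 and 0.0745 without WT library 1, WT library 4 or KO library 2. The labelled tissue was checked with 11 adipocyte markers, all detected. They summed to between 36760 and 44910 CPM in WT and between 30108 and 35246 CPM in KO libraries, without overlap. Singly, 3 of the 11 did not overlap, beside 8.86% of all tested genes. Markers of duct epithelium, 11 genes, summed to 13.5 to 30.0 CPM in WT and to 41.7, 500, 507 and 46.9 CPM in KO libraries 1 to 4. Of these 11, 6 did not overlap, against the same 8.86%. Of 8 liver markers, Cyp2e1 is also made by adipocytes. The other 7 summed to 8.51 to 25.2 CPM in WT and to 49.7, 15.8, 10.7 and 82.0 CPM in the KO libraries. Brown fat markers (7 genes) summed to 9.29 to 16.4 CPM in WT and 8.51 to 13.4 CPM in KO. Muscle markers (11 genes) summed to 16.4 to 46.0 and 16.5 to 48.0 CPM. Macrophage markers (6 genes) summed to 813 to 1063 CPM in WT and 799 to 1066 CPM in KO. Markers of fibroblasts and endothelium (7 genes) summed to 2728 to 3410 and 2075 to 3102 CPM. Genes of the male accessory glands (6) summed to 67.9 CPM in KO library 1 and to at most 4.02 CPM in the others. A single gene, Pbsn, made up the whole sum in KO library 1, and the rest of the list had no reads there. Reads of the mitochondrial chromosome made up 3.30, 3.55, 4.93 and 3.05% of counts in WT and 6.08, 6.06, 5.03 and 5.403% in KO libraries 1 to 4, without overlap. The part of these differences in the values that follow was not tested.

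The carnitine shuttle holds 3 of the 5 members with an unadjusted p under 0.05, Cpt1a, Cpt1b and Cpt2. Those 5 are 13.9% of the 36 members, near the 16.2% of all tested genes, and no test was made on this grouping. Slc25a20, also of the shuttle, went the other way, with a log2 fold change of 0.13. Carnitine palmitoyltransferase 1 joins the acyl chain to carnitine at the outer membrane and is the rate-controlling step of the pathway. Its liver-type form, Cpt1a (ENSMUSG00000024900, chromosome 19, 3323301 to 3385732 in build mm10), held 149, 153, 152 and 179 CPM in WT libraries 1 to 4 and 120, 111, 133 and 144 CPM in KO libraries 1 to 4. Each KO library lay below each WT library. The log2 fold change was -0.32 (SE 0.101, interval -0.54 to -0.09), 1.24-fold lower, and did not pass (edgeR adjusted p = 0.183). Over 19 alternative settings it lay between -0.39 and -0.25, with an adjusted p from 0.0766, in DESeq2, to 0.637, without KO libraries 2 and 3.

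The muscle-type form, Cpt1b (chromosome 15, 89416405 to 89425863), was far scarcer and held 10.1, 7.41, 8.45 and 15.6 CPM in WT and 7.46, 6.59, 5.72 and 7.54 CPM in KO libraries 1 to 4. WT library 4 stood well above the rest, and WT library 2 lay inside the KO range. The log2 fold change was -0.60 with a wide interval, -1.15 to -0.06 (adjusted p = 0.261). Without WT library 4 it was -0.34 (adjusted p = 0.420). The model of Chkb, a choline kinase gene, covers the whole of Cpt1b on the same strand in the file, so Cpt1b counts are uncertain. Chkb had a log2 fold change of -0.09 (adjusted p = 0.595).

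Cpt2, the inner-membrane partner that frees the acyl chain from carnitine, held 115, 121, 166 and 141 CPM in WT and 107, 107, 113 and 118 CPM in KO libraries 1 to 4. WT libraries 3 and 4 were high and WT library 1 lay within the KO values (log2 fold change -0.29, interval -0.55 to -0.03, adjusted p = 0.264). Slc25a20, the carnitine-acylcarnitine carrier, ran the other way, with 62.6 ± 8.61 CPM in WT and 68.6 ± 4.70 CPM in KO (SD, n = 4; log2 fold change 0.13, adjusted p = 0.589). Its lowest library was WT library 1, at 49.7 CPM, and the other 7 lay between 65.1 and 75.5 CPM.

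Acyl-CoA dehydrogenases open each round of the spiral and differ in chain length: Acadvl and Acadl act on long chains, Acadm on medium and Acads on short ones. Per exonic length of the file Acadl (128.0 ± 23.3 FPKM) and Acadm (111 ± 15.5 FPKM) were the most abundant of them, and per principal transcript Acadm stood above Acadl (158 ± 22.2 against 134 ± 24.4). Acadl held 192, 267, 354 and 249 CPM in WT and 274, 241, 230 and 247 CPM in KO libraries 1 to 4. The WT libraries spanned the whole KO range on both sides, and the log2 fold change was -0.10 (interval -0.48 to 0.28, adjusted p = 0.812). For Acadvl, Acadm and Acads the log2 fold changes were -0.05, -0.11 and -0.13 (adjusted p = 0.831, 0.745 and 0.705).

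The trifunctional protein, which carries out the last steps on long chains, is built of an alpha subunit from Hadha and a beta subunit from Hadhb. Hadha held 201, 229, 259 and 245 CPM in WT and 208, 214, 198 and 202 CPM in KO libraries 1 to 4. WT library 1 lay inside the KO range, and the other WT libraries lay above it (log2 fold change -0.18, interval -0.39 to 0.02, adjusted p = 0.362). Hadhb held 36.4, 37.9, 43.3 and 34.3 CPM in WT and 37.8, 31.4, 30.1 and 31.2 CPM in KO libraries 1 to 4. KO library 1 was level with the WT libraries and the other KO libraries lay below them (log2 fold change -0.22, interval -0.45 to 0.01, adjusted p = 0.338). The genes lie head to head on chromosome 5, Hadha ending its minus-strand model at 30155162 and Hadhb starting at 30155248. The stretch between these starts is shown, since both members face away from it, with GGGCGG matches in capitals (chr5:30155163-30155247, plus strand, GRCm38, RefSeq sequence).
Hadha-Hadhb: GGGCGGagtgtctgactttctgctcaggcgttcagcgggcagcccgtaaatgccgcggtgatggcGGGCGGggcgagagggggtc
With the exonic lengths of the file, Hadha had 7.58 times the reads per kilobase of Hadhb in WT and 7.80 times in KO libraries (geometric means). That gap depends on the length: per kilobase of the principal transcript the levels were 54.6 ± 5.64 for Hadha and 17.2 ± 2.17 for Hadhb (FPKM, SD over 8 libraries), against 41.1 ± 4.24 and 5.35 ± 0.674 with the length of the file. Of all 50-base words in the principal Hadhb transcript, 62.4% also occur in transcripts of other genes, the processed pseudogenes Gm13910 and Gm9108, so the Hadhb count is uncertain. Gm13910 is listed in the file with 236 reads over the WT and 235 over the KO libraries.

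Enzymes for shorter chains and for unsaturated fatty acids complete the spiral. Acaa2, the thiolase of medium and long chains, held 122, 138, 148 and 172 CPM in WT and 118, 130, 104 and 135 CPM in KO libraries 1 to 4. The WT values spread upward from the KO range and overlapped it (log2 fold change -0.25, interval -0.52 to 0.03, adjusted p = 0.362). Eci1, an isomerase for double bonds, held 88.2, 87.9, 91.1 and 95.7 CPM in WT and 102, 96.8, 96.9 and 95.1 CPM in KO libraries 1 to 4. Its spread was small, with an SD of 3.60 CPM in WT and 3.23 CPM in KO, and its log2 fold change was 0.11 (SE 0.0625, adjusted p = 0.436). Ehhadh, the bifunctional enzyme of peroxisomal oxidation, held 59.1, 52.7, 52.8 and 59.2 CPM in WT and 64.9, 56.4, 54.1 and 72.4 CPM in KO libraries 1 to 4. KO libraries 1 and 4 held the most of it, and the genotypes overlapped (log2 fold change 0.15, interval -0.09 to 0.38, adjusted p = 0.523). Liver markers without Cyp2e1 were also highest in these libraries, at 49.7 and 82.0 CPM, and their part in the Ehhadh values was not tested.

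Electron-transferring flavoprotein was among the most abundant products of the pathway. Etfb, its beta subunit, held 159, 169, 229 and 174 CPM in WT and 193, 190, 180 and 199 CPM in KO libraries 1 to 4. Etfa, its alpha subunit, held 217, 237, 272 and 223 CPM in WT and 263, 226, 202 and 211 CPM in KO libraries 1 to 4. WT library 3 was the highest for both, and the genotypes overlapped (log2 fold changes 0.06 and -0.07, adjusted p = 0.839 and 0.791). In GENCODE M21 a longer gene model, Gm45233, holds 67.3% of the 50-base words of Etfb, which makes that count uncertain. The 9 beta-oxidation members with fewer values given, Slc25a20, Acadvl, Acadm, Acads, Hadh, Echs1, Eci2, Decr1 and Etfdh, had log2 fold changes between -0.13 and 0.13 and adjusted p from 0.589 to 0.932.

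Pyruvate enters the cycle through pyruvate dehydrogenase, whose catalytic part is made of Pdha1 and Pdhb products, or through pyruvate carboxylase, Pcx, which makes oxaloacetate and is abundant in fat. Pdhb (ENSMUSG00000021748, chromosome 14, 8165991 to 8172992) held 92.4, 89.2, 117 and 95.4 CPM in WT and 85.0, 85.3, 80.0 and 82.1 CPM in KO libraries 1 to 4. Each KO library lay below each WT library. The log2 fold change was -0.25 (SE 0.0934, interval -0.46 to -0.04), 1.19-fold lower, and did not pass (adjusted p = 0.243). A processed pseudogene, Gm6123, shares 30.3% of the 50-base words of Pdhb.

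Pdha1, on the X chromosome, held 294, 344, 417 and 328 CPM in WT and 335, 332, 243 and 299 CPM in KO libraries 1 to 4. WT library 3 and KO library 3 were its extremes and the groups overlapped (log2 fold change -0.19, interval -0.51 to 0.12, adjusted p = 0.534). Pcx held 955, 971, 1343 and 1426 CPM in WT and 1379, 1278, 1081 and 1259 CPM in KO libraries 1 to 4. All KO libraries fell between WT libraries 2 and 4 (log2 fold change 0.09, interval -0.27 to 0.45, adjusted p = 0.827). Pcx was the most abundant member per length, at 284 ± 43.3 FPKM over the 8 libraries (SD).

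At the entry of the cycle citrate synthase, Cs, condenses acetyl-CoA with oxaloacetate. Cs held 403, 432, 517 and 495 CPM in WT and 420, 426, 322 and 439 CPM in KO libraries 1 to 4, with KO library 3 far below the others (log2 fold change -0.20, interval -0.49 to 0.09, adjusted p = 0.478). NAD-dependent isocitrate dehydrogenase has its catalytic subunit from Idh3a and regulatory subunits from Idh3b and Idh3g. Idh3a held 155, 193, 249 and 210 CPM in WT and 174, 182, 131 and 192 CPM in KO libraries 1 to 4. The lowest value, in KO library 3, and the highest, in WT library 3, again came from the same libraries (log2 fold change -0.25, interval -0.62 to 0.11, adjusted p = 0.488).

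The regulatory subunits of isocitrate dehydrogenase were steadier. Idh3b held 172, 161, 207 and 197 CPM in WT and 182, 187, 161 and 163 CPM in KO libraries 1 to 4. Idh3g held 155, 157, 183 and 188 CPM in WT and 167, 178, 156 and 154 CPM in KO libraries 1 to 4. The genotypes overlapped for both (log2 fold changes -0.09 and -0.06, adjusted p = 0.721 and 0.794). Dlst, the succinyltransferase core of the 2-oxoglutarate dehydrogenase complex, held 209, 203, 238 and 235 CPM in WT and 202, 214, 181 and 202 CPM in KO libraries 1 to 4. KO library 2 lay inside the WT range, KO libraries 1 and 4 just below it and KO library 3 well below it (log2 fold change -0.15, adjusted p = 0.455).

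Succinyl-CoA ligase is built from a shared subunit and either of a pair of partners. Suclg1 encodes the shared alpha subunit, Suclg2 the beta subunit that makes GTP, and Sucla2 the beta subunit that makes ATP. Suclg2 (chromosome 6, 95473012 to 95718798) held 38.4, 38.6, 47.1 and 41.1 CPM in WT and 50.5, 50.3, 47.4 and 46.3 CPM in KO libraries 1 to 4. KO library 4 alone lay below the highest WT library, WT library 3. The log2 fold change was 0.24 (SE 0.083, interval 0.05 to 0.42, adjusted p = 0.212). Sucla2 (chromosome 14, 73525319 to 73596142) held 111, 122, 151 and 125 CPM in WT and 122, 121, 101 and 123 CPM in KO libraries 1 to 4 (log2 fold change -0.12, interval -0.37 to 0.13, adjusted p = 0.632). Suclg1 held 83.9, 85.6, 110 and 109 CPM in WT and 105, 129, 96.8 and 119 CPM in KO libraries 1 to 4 (log2 fold change 0.21, interval -0.08 to 0.50, adjusted p = 0.455). A processed pseudogene, Gm15163, shares 21.8% of the 50-base words of Suclg2 and is listed with 59 reads in each genotype.

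The closing steps are run by fumarase, Fh1, and malate dehydrogenase, which has a cytosolic form from Mdh1 and a mitochondrial form from Mdh2. Mdh1 held 404, 437, 571 and 519 CPM in WT and 496, 528, 443 and 481 CPM in KO libraries 1 to 4, with the KO values inside the WT range (log2 fold change 0.01, interval -0.27 to 0.29, adjusted p = 0.972). Ogdh, Dld, Fh1 and Mdh2, the citrate cycle members not described singly, had log2 fold changes between -0.06 and -0.02 and adjusted p from 0.855 to 0.943.

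Ratios of partner transcripts within a library do not depend on library scaling. From the possible pairs 6 such ratios were chosen and compared between genotypes, per length and with exact two-sided permutation tests, whose smallest p is 0.0286. The Suclg2 to Sucla2 ratio was 0.408, 0.373, 0.367 and 0.387 in WT and 0.487, 0.490, 0.554 and 0.442 in KO libraries 1 to 4. It was higher in each KO library than in each WT library. On the log2 scale the ratio was -1.38 ± 0.0676 in WT and -1.02 ± 0.134 in KO (SD, n = 4), a difference of 0.36 with an exact permutation p = 0.0286, the smallest possible here. After Benjamini-Hochberg adjustment over the 6 ratios it was 0.171, which is also the lowest value a single ratio could reach in this design, so the adjusted test could not have passed for this ratio alone. The difference lay between 0.30 and 0.41 with any library left out and was 0.27 without KO libraries 2 and 3.

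The other 5 ratios overlapped between genotypes. The Cpt1b to Cpt1a ratio ran from 0.0552 to 0.112 over all libraries (difference -0.23 on the log2 scale, exact permutation p = 0.314, adjusted 0.629). The Etfa to Etfb ratio ran from 0.659 to 0.872 (difference -0.15, exact permutation p = 0.171, adjusted 0.514). Hadha to Hadhb ran from 6.79 to 8.82, Pdha1 to Pdhb from 1.19 to 1.55 and Idh3b to Idh3g from 0.811 to 0.891. Their differences were 0.04, 0.04 and -0.03, each with an adjusted exact permutation p of 0.714. In fold terms the Idh3b to Idh3g ratio had the narrowest range of the 6 ratios over the 8 libraries. Sharing an enzyme does not set this pair apart, since the products of Hadha and Hadhb, Etfa and Etfb, and Pdha1 and Pdhb also do.

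**Figure D2:**
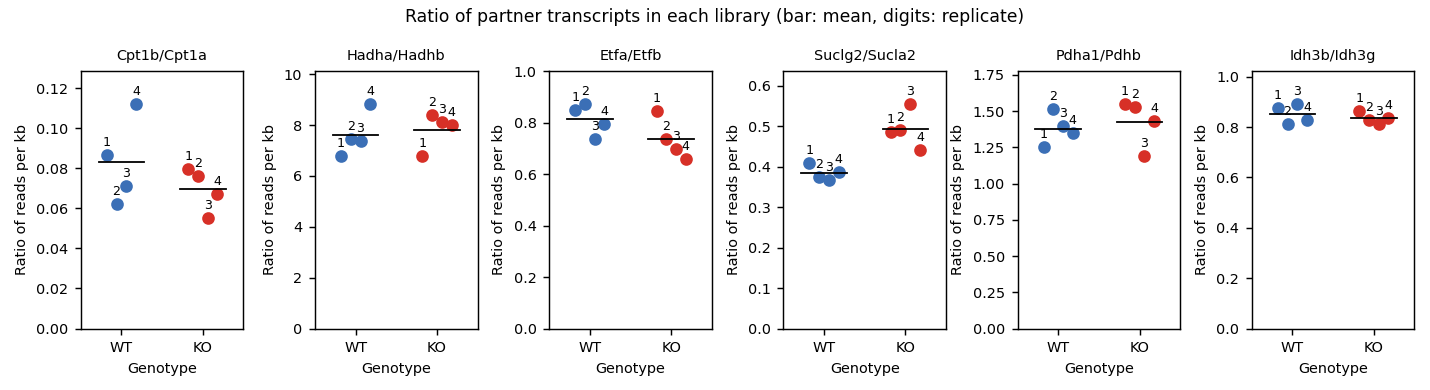
Ratio of reads per kilobase of 6 pairs of partner transcripts in each library (points, with the replicate number, and the mean of each genotype as a bar). The Suclg2 to Sucla2 ratio lies between 0.367 and 0.408 in WT and between 0.442 and 0.554 in KO, and the other pairs overlap.

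Many members stood high or low together in the same libraries, also among mice of the same genotype. WT library 3 held the highest value of 26 of the 36 members, and KO library 3 held the lowest of 17 and WT library 1 of 13. WT library 3 was also the highest for 10 of 23 other oxidation genes and 7 of 24 other citrate cycle genes, named later. The shares over all tested genes were not counted, so these counts are not shown to be particular to the members. In WT library 3, 33 members stood above their WT mean. In WT libraries 1 and 2, 35 and 33 stood below it, among them all 16 citrate cycle genes in each. In KO library 3, 32 of the 36 stood below their KO mean, again with all 16 citrate cycle genes. KO library 2, which held duct epithelium RNA at nearly the same level as KO library 3, had all 16 citrate cycle genes above the KO mean. The part of duct epithelium RNA in these values was not tested.

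The sums per library show the same spread. Beta-oxidation genes summed to 2852, 3200.3, 3863 and 3406 CPM in WT and to 3319, 3111, 2844 and 3173 CPM in KO libraries 1 to 4, means of 3330.3 ± 422 and 3112 ± 199 (SD, n = 4). Citrate cycle genes summed to 4002, 4236, 5406 and 5158 CPM in WT and to 4818, 4848, 3981 and 4653 CPM in KO libraries, means of 4700.3 ± 686 and 4575 ± 405. The genotypes overlapped in both sums, and no test was made on them. WT library 3, highest in both, also had the highest adipocyte marker sum, 44910 CPM. KO library 2 had the lowest adipocyte marker sum of all, 30108 CPM, and the highest citrate cycle sum of the KO libraries. The part of adipocyte content in the member sums was not tested.

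**Figure D3:**
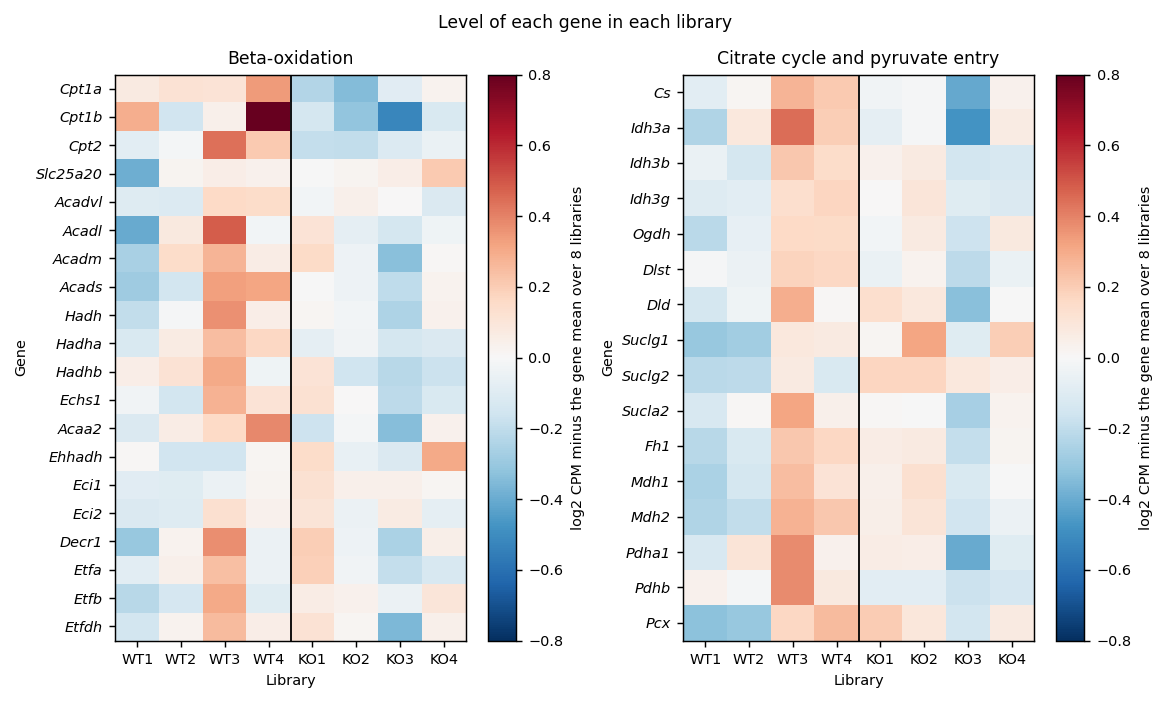
Log2 CPM of each gene in each library after subtraction of its mean over the 8 libraries (red higher, blue lower, with the line between WT and KO). WT library 3 is red for most genes and KO library 3 blue, and Suclg2 is the citrate cycle gene that is above its mean in all KO libraries.

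**Figure D4:**
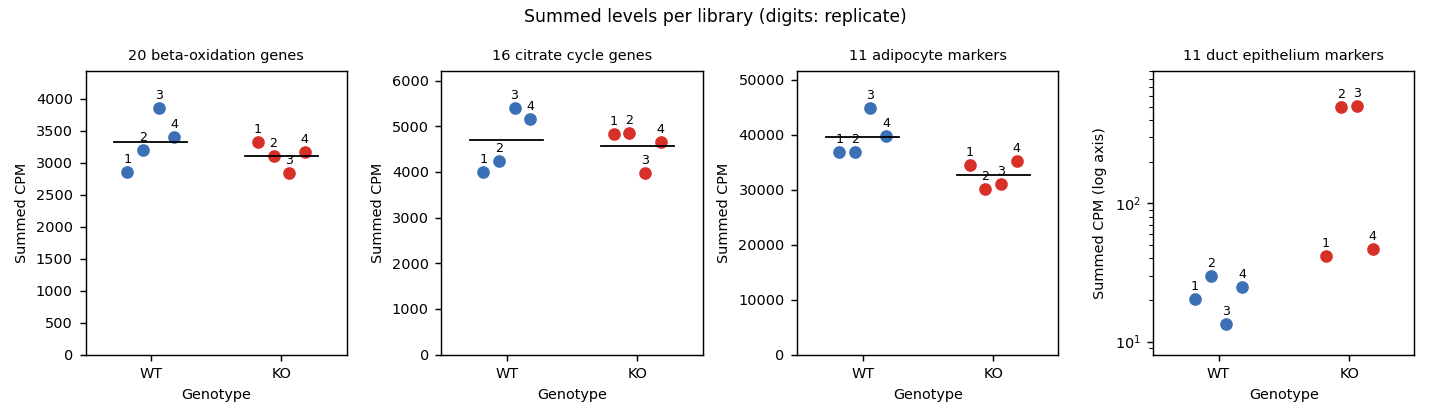
Summed CPM per library of the 20 beta-oxidation genes, the 16 citrate cycle genes, 11 adipocyte markers and 11 duct epithelium markers (log axis in the last), with replicate numbers and, on linear axes, the mean of each genotype. The member sums overlap between genotypes, whereas the adipocyte sums (36760 to 44910 against 30108 to 35246 CPM) do not.

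Levels per length spread widely within each pathway. As FPKM, which divides reads by the exonic length and library size, beta-oxidation genes ran 64.1-fold from Cpt1b at 2.55 ± 0.924 to Etfb at 164 ± 19.1, followed by Acadl at 128.0 ± 23.3 and Etfa at 126 ± 13.4 (SD over 8 libraries). The order of the last pair is within their spread. Citrate cycle genes ran 21.4-fold from Suclg2 at 13.3 ± 1.45 to Pcx at 284 ± 43.3, followed by Mdh1 at 189 ± 21.4, Cs at 153 ± 20.9 and Mdh2 at 144 ± 19.3 FPKM. Thus the GTP-making subunit gene was the scarcest of the cycle, below Suclg1 at 22.7 ± 3.36 and Sucla2 at 30.5 ± 3.57 FPKM.

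These orders depend on the length used. For 7 members the exonic length in the file was over 2 times that of the principal transcript in GENCODE M21, as for Echs1 (5274 against 1557 bases) and Hadh (4977 against 1789 bases). With the principal transcript in place of the file's length, Hadh moved from the 8th to the 2nd place of the 20 beta-oxidation genes and Echs1 from the 12th to the 5th. Etfb and Pcx stayed at the top of their lists and Cpt1b and Suclg2 at the bottom.

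**Figure D5:**
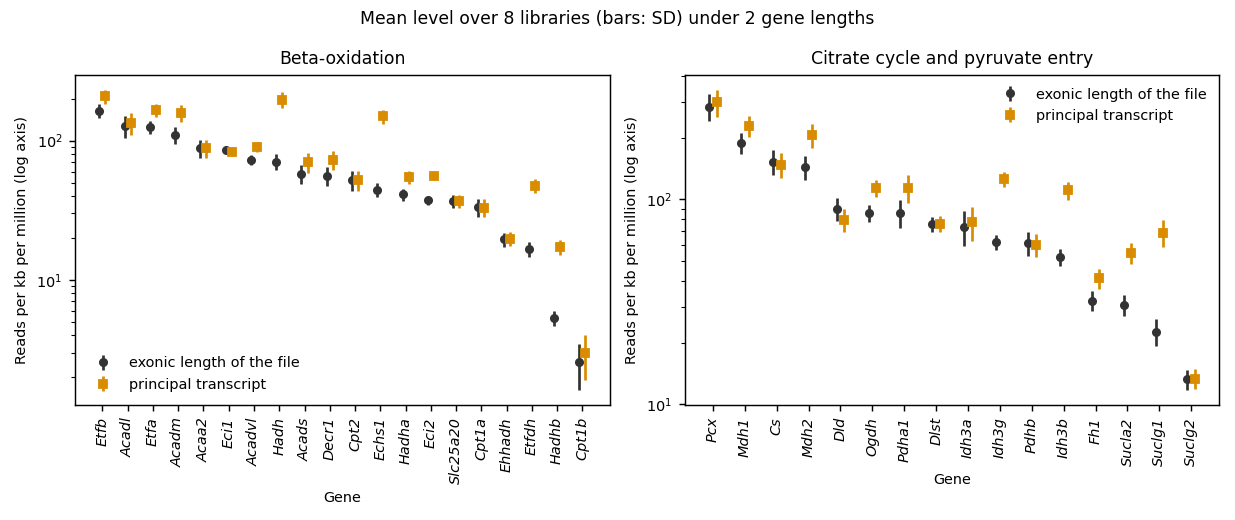
Mean FPKM of each gene over the 8 libraries (log axis, bars are SD), with the exonic length of the file (circles) or the principal transcript (squares). Hadh, Echs1, Etfdh, Hadhb and Suclg1 stand higher with the principal transcript.

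Genes next to these pathways were read from lists chosen for their function. Of 23 other genes of, or close to, mitochondrial and peroxisomal oxidation, 1 rose, 0 fell and 22 did not pass, where 0.405% of all tested genes were called. Their median log2 fold change was 0.06. An unadjusted p under 0.05 was reached by 6 (26.1%, against 16.2% of all tested genes), 5 of them higher and 1 lower in the knockout. The gene that rose was Pecr, a peroxisomal enoyl-CoA reductase, on chromosome 1 (72259167 to 72284314). Pecr held 13.9, 17.2, 17.1 and 15.1 CPM in WT and 30.2, 26.2, 22.4 and 25.4 CPM in KO libraries 1 to 4, without overlap. Its log2 fold change was 0.72 (SE 0.120, adjusted p = 0.0496), 1.64-fold higher, and the direction held in all 19 alternatives, in which the adjusted p ran from 5.40e-05 (DESeq2) to 0.184 (replicate block). The call was lost without WT libraries 1, 2, 3 or 4 (adjusted p = 0.103, 0.133, 0.108 and 0.151) and without KO libraries 2, 3 or 4 (0.163, 0.0635 and 0.0700). It was also lost in further alternatives, not only in those with a library left out.

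The genes of this list with the next lowest p-values did not pass. Acad10 had 19.3 ± 0.626 CPM in WT and 23.4 ± 1.55 CPM in KO, without overlap (log2 fold change 0.28, adjusted p = 0.171). Amacr, a racemase for branched fatty acids, had 13.5 ± 2.10 and 19.1 ± 3.26 CPM, without overlap (log2 fold change 0.50, adjusted p = 0.172). Hsd17b10, a mitochondrial dehydrogenase of short-chain acyl-CoA, had 84.5 ± 3.66 and 104 ± 12.5 CPM (log2 fold change 0.29, adjusted p = 0.184). Acacb, named after its values were seen as the gene of the 6 with a negative log2 fold change, makes the malonyl-CoA that inhibits carnitine palmitoyltransferase 1. It had 228 ± 63.6 and 153 ± 27.6 CPM, with overlap (log2 fold change -0.57, interval -1.05 to -0.10, adjusted p = 0.228). Each value is mean ± SD with n = 4, WT before KO.

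Of 24 other genes of the citrate cycle, its carriers and pyruvate control, 0 passed with edgeR and 3 (12.5%, against 16.2% of all tested genes) reached an unadjusted p under 0.05, with a median log2 fold change of 0.02. Ogdhl, a relative of Ogdh, held 1.72, 1.47, 3.86 and 3.86 CPM in WT and 5.93, 21.1, 19.3 and 8.84 CPM in KO libraries 1 to 4. Its log2 fold change was 2.34 (interval 1.23 to 3.44, adjusted p = 0.0908), without overlap. Its highest values were in KO libraries 2 and 3, which held 500 and 507 CPM of duct epithelium markers. KO libraries 1 and 4, with 41.7 and 46.9 CPM of these markers, also lay above each WT library. The part of duct epithelium RNA in the Ogdhl values was not tested. Pdp2, a phosphatase that turns pyruvate dehydrogenase on, held 12.6, 12.7, 11.98 and 12.5 CPM in WT and 9.62, 9.85, 8.04 and 10.0 CPM in KO libraries 1 to 4, without overlap (log2 fold change -0.41, adjusted p = 0.156). Pdpr, the regulatory subunit of that phosphatase, had 26.9 ± 5.32 and 19.9 ± 3.17 CPM (log2 fold change -0.43, adjusted p = 0.235), and Me2, a mitochondrial malic enzyme, 29.0 ± 2.83 and 33.0 ± 3.25 CPM (log2 fold change 0.19, adjusted p = 0.416; SD, n = 4).

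Transcription factors and coactivators that control these pathways numbered 14, of which 13 were found and 12 tested, since Perm1 had no row by that name and Esrrb was below the filter. None of the 12 passed with edgeR (0), and 3 (25.0%, against 16.2% of all tested genes) reached an unadjusted p under 0.05. Gabpa, an ETS factor of mitochondrial genes, held 63.4, 64.7, 56.9 and 56.6 CPM in WT and 49.7, 46.8, 50.4 and 49.9 CPM in KO libraries 1 to 4, without overlap (log2 fold change -0.30, interval -0.46 to -0.14, adjusted p = 0.119). Ppard, a nuclear receptor for fatty acids, had 39.6 ± 4.68 and 51.5 ± 5.71 CPM, without overlap (log2 fold change 0.38, adjusted p = 0.159). Esrrg, an estrogen-related receptor, held 1.03, 0.999, 1.39 and 2.23 CPM in WT and 1.46, 5.71, 7.70 and 3.03 CPM in KO libraries 1 to 4 (adjusted p = 0.171). Like Ogdhl it was highest in KO libraries 2 and 3. Pparg, the master regulator of adipocytes, had 241 ± 18.8 and 206 ± 26.2 CPM (log2 fold change -0.23, adjusted p = 0.336; SD, n = 4).

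Promoters of the members were read from RefSeq (GRCm38.p6), as 250 bases before to 50 after each start, and 32 of 36 members matched an entry. Since the members' levels varied together between mice, shared motifs were counted on both strands. A match is a description of the letters only, and its part in the levels was not tested. The comparison was with all genes that have a promoter, not only with those that passed the filter on low counts. GGGCGG, the GC box, was in 24 of the 32 (75.0%) against 38.2% of 27025 genes with a promoter, and CCAAT in 16 (50.0%) against 41.1%. CCGGAAGT, a site of ETS factors such as the Gabpa product, was in 3 (9.38%) against 4.31%, and the NRF1 palindrome, the 10 capitals in the Etfdh stretch shown here, in 1 (3.13%) against 1.07%. TATAAA was in 0 of 32 against 15.7%. TCAAGGTCA, the site of estrogen-related receptors, and AGGTCA repeated after 1 base of any kind, the site of the fatty acid receptors, overlap in AGGTCA and were in 0 of 32 against 0.466% and 0.0481%.

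The stretches before the start of Cpt1a (chr19:3323051-3323300, plus strand) and Pdhb (chr14:8172993-8173242, minus strand) are shown because these were the members whose libraries did not overlap. Capitals mark CCAAT and GGGCGG on either strand.
Cpt1a: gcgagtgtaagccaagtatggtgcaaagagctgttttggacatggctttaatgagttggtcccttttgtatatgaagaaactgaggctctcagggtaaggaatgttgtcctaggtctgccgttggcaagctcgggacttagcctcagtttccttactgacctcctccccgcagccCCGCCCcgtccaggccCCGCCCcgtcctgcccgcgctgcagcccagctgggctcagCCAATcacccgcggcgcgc
Pdhb: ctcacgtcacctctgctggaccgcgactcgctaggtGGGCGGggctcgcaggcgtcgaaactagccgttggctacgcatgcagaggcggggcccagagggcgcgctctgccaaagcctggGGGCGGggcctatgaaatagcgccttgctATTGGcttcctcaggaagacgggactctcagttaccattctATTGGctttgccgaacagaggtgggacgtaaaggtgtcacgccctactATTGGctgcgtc
Pdhb holds 3 CCAAT matches, all on the other strand and written ATTGG, and 2 GC boxes. Cpt1a holds 1 CCAAT match and 2 GC boxes.

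The members with CCGGAAGT are shown because Gabpa, an ETS factor, had the lowest p of the regulators. Etfdh is shown beside them as the member with the NRF1 palindrome, which is not an ETS site. Capitals mark these sites and GGGCGG. The windows are chr4:107923590-107923709 (minus strand) for Cpt2, chr9:108662016-108662135 (plus) for Slc25a20, chr12:85110773-85110840 (plus) for Dlst and chr3:79628867-79628927 (minus) for Etfdh.
Cpt2: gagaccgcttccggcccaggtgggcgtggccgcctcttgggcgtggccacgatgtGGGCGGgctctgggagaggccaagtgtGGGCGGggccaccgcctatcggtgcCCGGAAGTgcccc
Slc25a20: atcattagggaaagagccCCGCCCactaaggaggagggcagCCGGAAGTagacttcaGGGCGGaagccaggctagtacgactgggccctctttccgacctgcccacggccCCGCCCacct
Dlst: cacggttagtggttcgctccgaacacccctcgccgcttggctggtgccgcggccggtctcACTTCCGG
Etfdh: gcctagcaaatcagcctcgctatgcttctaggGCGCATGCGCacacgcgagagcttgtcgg
The 3 genes with the ETS site had log2 fold changes of -0.29 (Cpt2), 0.13 (Slc25a20) and -0.15 (Dlst), and Etfdh had -0.09 (adjusted p = 0.759). None of these 4 passed the test.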

How the data were processed

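RNA of epididymal fat was measured in 4 WT and 4 KO libraries of polyadenylated RNA. The authors deposited a table with a count of reads per gene and library and an FPKM value, per the file headers. Build mm10, Picard and Novoalign 2.8.1 are listed, without role or order, in the submitters' processing notes. For the counting program, the annotation and the use of strand, the sources used here give nothing, so genes that overlap others are uncertain. Each of the 158499 deposited FPKM values above 0 equals the count over exonic length and library total within 0.1%. Starts in the file are 0-based and are printed 1-based.

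Counts were filtered with filterByExpr (minimum count 10; 14800 of 37417 genes), scaled by TMM and compared with edgeR 4.0.16 (quasi-likelihood F test, no covariate, R 4.3.3), with Benjamini-Hochberg adjustment over all tested genes and a threshold of 0.05. CPM and FPKM in the text are on the TMM scale. Standard errors and 95% intervals come from that test. The ratios used counts plus 0.5 and exact permutation over the 70 assignments (scipy 1.17.1). Alternatives were scaling by RLE, by upper quartile or by library size, a filter of 1 CPM in 4 libraries or none, DESeq2 1.42.0, limma-voom (limma 3.58.1), robust edgeR, a replicate block, each library left out, and KO libraries 2 and 3 or 1 and 4 left out. On simulated counts of 14800 genes in this comparison, with 50 genes changed at each fold, the test recovered 36% of genes changed 1.5-fold and 66% at 2-fold. The lowest chi-square per gene between replicates was 20.8, so no replicate was a copy of another, and all 8 libraries were kept. That value does not judge RNA of other tissues in a library. The labels give 4 mice per genotype, so p-values measure the spread between these mice. Members and lists were chosen with earlier results of these data known. The values of every library are given for called members, the 8 members of each pathway with the lowest p, the 3 most abundant and the members of the ratios. From each context list the called genes and the 4 with the lowest p are named. Copies were looked for as 50-base words shared between GENCODE M21 transcripts.
The principal transcript length and the sums relative to adipocyte markers were added after the data were seen.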

Additional observations from a re-analysis of the deposited data

Results flagged for a closer look

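In 4 of 72 groups of 4 libraries, a single library stood apart from the other 3 of its genotype, with a gap of 0.834 to 0.921 of the group's range to its nearest neighbour, past Dixon's limit for 4 samples. Chance flags about 1 in 20 groups. Cpt1a held 178.6 CPM in WT library 4, above 148.5 to 153.1 CPM in the other WT libraries. Slc25a20, the carnitine carrier, held 49.71 CPM in WT library 1, below 66.18 to 67.59 CPM in the others. Cs, citrate synthase, held 322.4 CPM in KO library 3, below 419.6 to 438.9 CPM, and Sucla2, the ATP-making ligase subunit, held 100.6 CPM in the same library, below 120.8 to 123.3 CPM.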

How the results depend on the processing

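The count of members called was 0 of 20 and 0 of 16 in all 19 alternatives, and the lowest adjusted p of a member in any of them was 0.0766. The sign of the log2 fold change was the same in every alternative for 23 of 36 members and turned in at least 1 for 13. The median of the beta-oxidation genes ran from -0.173 to -0.00857 with a library left out, highest without WT library 3, and that of the citrate cycle genes from -0.116 to 0.00449. Over all genes the number called was 60 and ran from 0 (without KO library 2, where edgeR gave 1573 genes an unadjusted p under 0.05) to 290 (without KO library 1) with a library left out; it was 813 with DESeq2, 14 with the replicate block, 3 without KO libraries 2 and 3 and 1469 without KO libraries 1 and 4, and the cause was not tested. Same-numbered libraries were not paired: correlations of their deviations ran from -0.25 to 0.18, 1 of 4 was above 0.1, and 2 of 8 libraries correlated best with their own number. The replicate block changed no member's call and removed that of Pecr (adjusted p = 0.184) and of Atg3 (0.111).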

Other observations

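The members can also be read relative to adipocyte markers. The 20 beta-oxidation genes summed to 7.76, 8.68, 8.60 and 8.58% of the sum of 11 adipocyte markers in WT and to 9.64, 10.3, 9.14 and 9.003% in KO libraries 1 to 4, without overlap. The 16 citrate cycle genes summed to 10.9, 11.5, 12.04 and 12.99% in WT and to 14.0, 16.1, 12.8 and 13.2% in KO libraries, where KO library 3 lay below WT library 4. With the mean log2 CPM of each list in place of its sum, the citrate cycle genes stood 3.34 to 3.46 below the adipocyte markers in WT and 2.98 to 3.26 below them in KO libraries, without overlap. Of the 11 markers, 10 had a log2 fold change below 0 (median -0.32) and 0 passed with edgeR, and Cidec, a lipid droplet protein, was the marker above 0. Fabp4, a fatty acid binding protein, was the most abundant marker in each library. The adipocyte marker sum itself was lower in KO without overlap, at 36760 to 44910 CPM in WT and 30108 to 35246 CPM in KO. Both member sums overlapped between genotypes. A lower divisor raises such a percentage, so the percentages do not show a rise of the members. These ratios were chosen after the data were seen, and no test was made on them.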
